A study of Zea mays with 6 samples.

Results

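The 75 genes described here are those of 42508 in the deposited table whose best Swiss-Prot match, a similarity annotation, names an enzyme of auxin synthesis, an auxin carrier, a PINOID kinase or an enzyme that conjugates auxin. They comprise 19 YUCCA enzymes, 5 tryptophan aminotransferases, 5 influx carriers of the AUX/LAX type, 19 PIN efflux carriers, 5 PINOID kinases, 12 PIN-LIKES carriers and 10 GH3 amido synthetases. The names are mostly those of the nearest match in rice or Arabidopsis, so that more than 1 maize gene may bear a given name. RNA was sequenced from immature maize ears of 1.5 to 2.0 mm, taken from plants with 6 to 9 leaves, at the stage of the inflorescence and spikelet pair meristems. Line A12 carries teosinte DNA at the kernel row number locus qKRN5.04b on chromosome 5, and line B46 carries maize DNA there. Both are nearly isogenic recombinant inbred lines from a cross of teosinte with maize. All plants grew under standard conditions in what the labels call the same batch. Each line has 3 libraries, each a pool of at least 50 ears, and only 1 line stands for each allele, so the locus and any other difference between the lines cannot be told apart.

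Auxin is the plant hormone that marks where lateral organs start. Tryptophan aminotransferases turn tryptophan into indole-3-pyruvate, and YUCCA monooxygenases turn that into indole-3-acetic acid, the main auxin. AUX/LAX proteins carry auxin into cells. PIN proteins at the plasma membrane carry it out on the side of the cell where they sit. PINOID kinases phosphorylate such PIN proteins and so set that side. PIN-LIKES proteins, known from Arabidopsis, hold auxin inside the cell at the endoplasmic reticulum. GH3 enzymes join auxin to amino acids, which removes it from the active pool. In maize, mutants that lack a YUCCA, a tryptophan aminotransferase or a PINOID-type kinase form ears and tassels with few branches and spikelets. The files do not say which identifiers are those genes.

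Library totals lay between 14625831 and 15675012 reads assigned to genes. Of the defining genes of the labelled tissue, KNOTTED 1, which maintains the meristem, was present in all libraries at 42.0 to 81.1 FPKM (read fragments relative to gene length and library size, as deposited). The ear meristem list it belongs to (60 genes, 9 at 0 reads, 40 tested) held 6 higher, 6 lower and 28 uncalled genes. Over all genes tested, 4.61% were called higher in A12 and 5.25% lower. The ear meristem list summed to 1211 to 1489 FPKM in B46 and 1251 to 1407 FPKM in A12. KNOTTED 1 was not called (edgeR adjusted p = 0.535), while its relatives knotted-1-like 7 and knotted-1-like 12 were higher in A12 (adjusted p = 0.00752 and 0.00366). Genes annotated as floral MADS-box factors, markers of later flower tissue, were higher in A12 in 16 of 16 tested cases, against 4.61% of all genes tested. At 0 reads were 3 of the 20 listed genes. The summed level of the list was 17.8 to 26.5 FPKM in B46 and 771, 196 and 357 FPKM in A12 replicates 1, 2 and 3. Genes so low in B46 could pass the filter on low counts through A12 alone, and how many did was not counted. Photosynthesis genes, markers of green tissue, were called in 1 of 37 cases, and their summed level was 182 to 279 FPKM in B46 and 681, 123 and 280 FPKM in A12. A12 replicate 1 was thus the highest library in both lists. Of the photosynthesis genes, 7 of 53 were at 0 reads. The vascular list (26 genes, 5 at 0 reads, 5 tested, 1 higher) summed to 5.4 to 7.3 FPKM in B46 and 5.7 to 7.4 in A12, and the anther and pollen list (9 genes, 4 at 0 reads, 3 tested, 0 called) to 217 to 244 and 224 to 259. The part of these tissues in the auxin results was not tested.

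Of the 75 auxin genes, 35 passed the filter on low counts and were tested. The other 40 comprised 21 with 0 reads in every library and 19 with at most 62 reads in all. The 6 libraries were compared with edgeR's quasi-likelihood test, and a gene was called at a Benjamini-Hochberg adjusted p under 0.05 over all genes tested. In A12, 6 auxin genes rose, 3 fell and 26 were not called. The 9 calls make 25.7% of the tested auxin genes, where 9.86% of all 22741 genes tested were called. In the upward direction the share was 17.1% against 4.61%, and in the downward direction 8.57% against 5.25%. The GH3.2-like and YUCCA8-like genes passed the filter through the line where they were high, so they had to differ to be tested at all. The median log2 fold change (A12 minus B46) of the tested auxin genes was -0.02, against 0.01 for all genes tested, and the median size of the change was 0.48 against 0.24. Libraries of A12 and B46 were fully separate for 13 of the 35, or 37.1%, against 33.4% of all genes tested. An unadjusted p under 0.05 was found for 12 of the 35, where 27.2% of all genes had one. Leaving out A12 replicate 3, B46 replicate 1 or B46 replicate 2 left the same 4 calls each time, where 1.73%, 3.07% and 1.86% of all genes were called. Without A12 replicate 1 all 9 remained among 11 calls (19.3% of all genes), without A12 replicate 2 there were 8 calls (9.41%), 5 of the 9 and 3 others, and without B46 replicate 3 also 8 (6.09%), 7 of the 9 and 1 other. The 3 others were the LAX2-like gene, the PIN3a-like gene Zm00004b019520 and the GH3.17-like gene Zm00004b010311, and the 1 other was the PIN1a-like gene Zm00004b015082. DESeq2 called 11 auxin genes (13.6% of all genes) and limma on FPKM 7 (8.49%). A change in the level of a transcript in such bulk tissue cannot be told apart from a change in the number of cells that hold it.

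**Figure D1:**
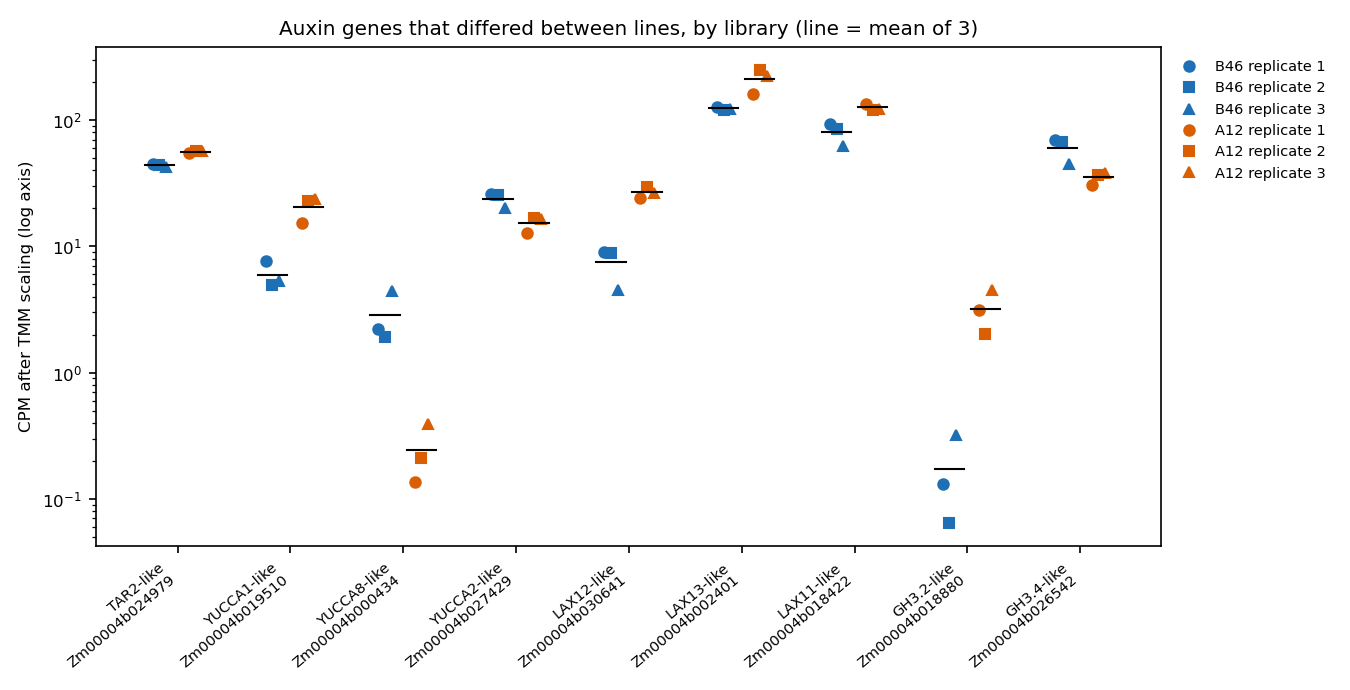
The 9 auxin genes called between the lines, with CPM (reads per 1000000 assigned reads) after TMM scaling on a log axis; each point is a library and each black line a mean of 3. For every gene the 3 A12 points lie wholly above or wholly below the 3 B46 points, and the YUCCA8-like and GH3.2-like genes show the widest gaps.

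Auxin synthesis genes moved in both directions. The most abundant tryptophan aminotransferase transcript was that of Zm00004b024979, annotated as tryptophan aminotransferase-related protein 2 of rice (chromosome 8, 17231224 to 17235645). It gave 685, 692 and 660 reads across B46 replicates 1, 2 and 3 and 801, 826 and 884 across A12 replicates 1, 2 and 3, the order used throughout. Every A12 library lay above every B46 library, and the spread within each line was small. The gene rose from 43.9 ± 1.13 to 56.5 ± 1.63 CPM (SD, n = 3), a log2 fold change of 0.36 (with an SE of 0.08, adjusted p = 0.0349 by edgeR). That call was lost when any 1 library other than A12 replicate 1 was left out (edgeR adjusted p = 0.0699 to 0.162) and when genes of low count were kept (adjusted p = 0.0543). The other tested gene of that name, Zm00004b015991, had 20 to 29 reads in B46 and 25 to 40 in A12, and its log2 fold change of 0.48 (SE 0.30) was not called by edgeR (adjusted p = 0.351). The remaining 3 aminotransferases had between 0 and 4 reads in all 6 libraries together.

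Of the YUCCA enzymes, which make the last step to auxin, 5 of 19 were tested, 1 rose, 2 fell and 2 were not called. The most abundant per length was Zm00004b019510, annotated as rice YUCCA1 (chromosome 3, 223364869 to 223367053). It gave 117, 77 and 83 reads across B46 and 224, 329 and 369 across A12, with the lowest A12 library well above the highest of B46. The mean rose 3.46-fold, from 5.98 ± 1.48 to 20.7 ± 4.73 CPM (log2 change 1.79 with an SE of 0.24, adjusted p = 0.00702 by edgeR). Without A12 replicate 1 the log2 fold change was 1.97 (edgeR adjusted p = 0.00148).

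The opposite change was seen for Zm00004b000434, annotated as rice YUCCA8 (chromosome 1, 13778531 to 13781088). It gave 34, 30 and 69 reads across B46 and 2, 3 and 6 across A12. A12 thus held 11 reads of this gene in all, and none of its libraries came near those of B46. It fell from 2.87 ± 1.39 to 0.245 ± 0.130 CPM (log2 change -3.50 with an SE of 0.54, adjusted p = 0.0114 by edgeR). The gene annotated as Arabidopsis YUCCA2, Zm00004b027429 (chromosome 8, 162522509 to 162532148), gave 394, 398 and 314 reads across B46 and 186, 240 and 256 across A12. It fell by 0.64 on the log2 scale (with an SE of 0.16, adjusted p = 0.0475 by edgeR), close to the threshold. Its call was lost without A12 replicate 2, A12 replicate 3, B46 replicate 1 or B46 replicate 2 (edgeR adjusted p = 0.0586, 0.132, 0.161 and 0.187 in that order) and with limma on FPKM (adjusted p = 0.124).

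The YUCCA6-like and YUCCA10-like genes had log2 fold changes of -0.33 (SE 0.41) and 0.34 (SE 0.68) and were not called. Of the 14 YUCCA genes that were not tested, 6 had 0 reads in every library. A second YUCCA1-like gene on chromosome 6, Zm00004b028557, was at 0 reads throughout B46 and gave 3, 2 and 5 across A12, too few for the filter. A YUCCA9-like gene, Zm00004b035359, gave 1, 6 and 1 reads across B46 and 28, 1 and 9 across A12, so that most of its A12 reads came from replicate 1. Both were singled out after their values were seen. Summed over the class, YUCCA transcripts stood at no more than 12.02 FPKM in any B46 library and at 16.6 to 21.2 FPKM in A12. The YUCCA1-like gene alone stood at 4.24 ± 1.05 FPKM in B46 and 14.7 ± 3.31 FPKM in A12.

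**Figure D2:**
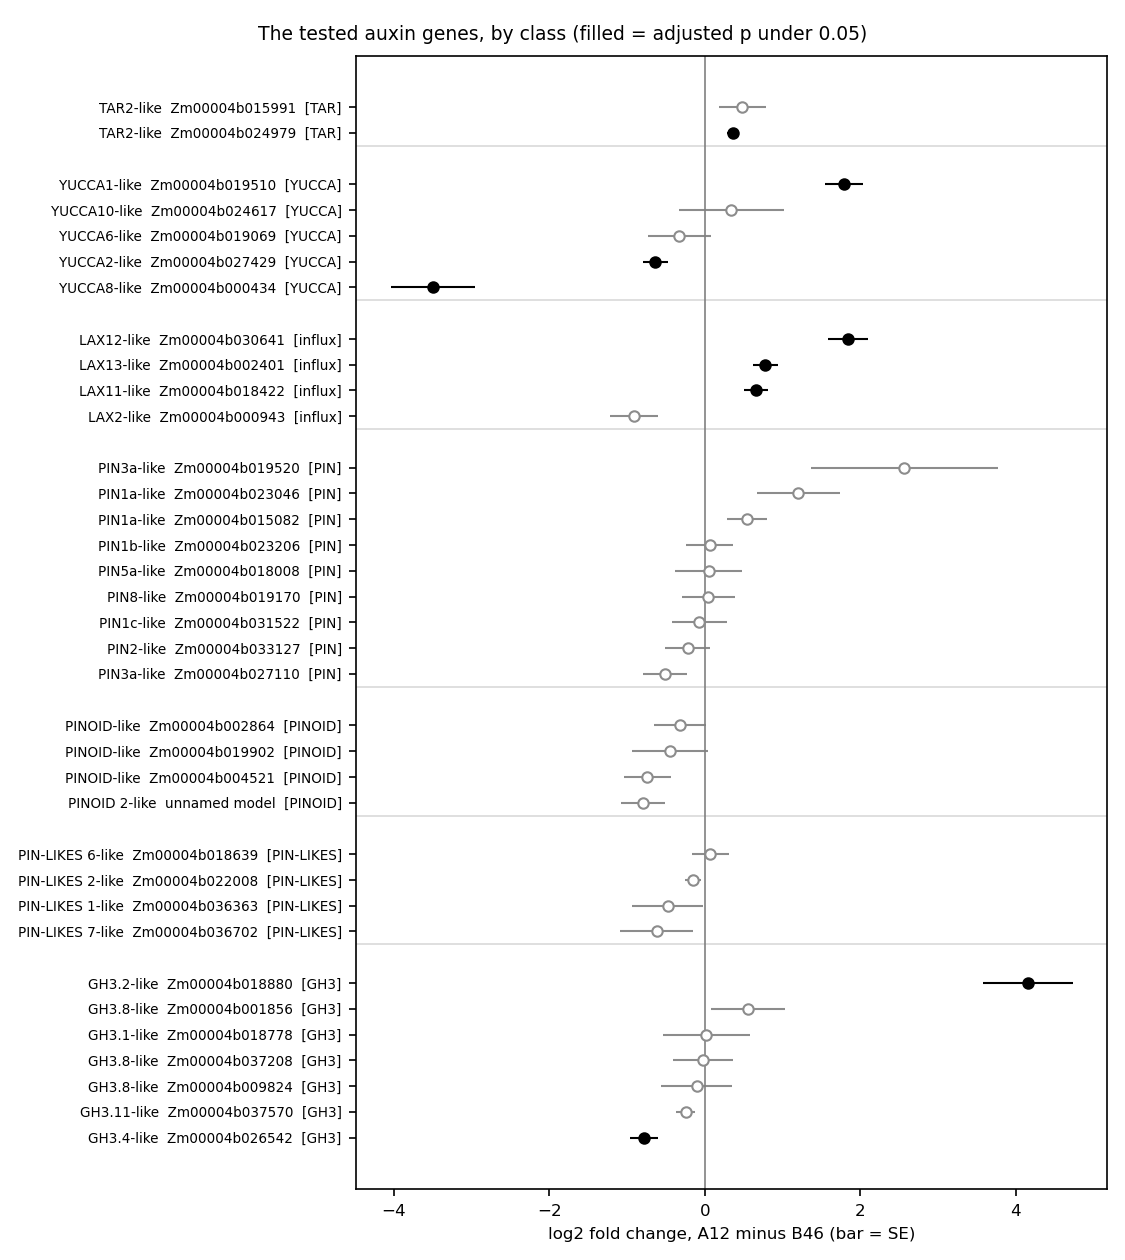
Log2 fold changes, A12 minus B46, of the 35 tested auxin genes by class, with the standard error as bar; filled points have an edgeR adjusted p under 0.05. The influx carriers split 3 up against 1 not called below 0, the 9 PIN genes are all open points, and the GH3 and YUCCA classes hold points on both sides.

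Of the tested influx carriers, 3 of 4 were higher in A12 and 0 lower. Swiss-Prot entry names tell them apart. The LAX12-like gene, Zm00004b030641 (chromosome 6, 149633687 to 149647354), gave 139, 138 and 70 reads across B46 and 355, 428 and 410 across A12. The A12 libraries were close together, and even the lowest was far above every B46 library. It rose 3.60-fold, from 7.47 ± 2.56 to 26.9 ± 2.80 CPM (log2 change 1.84 with an SE of 0.26, adjusted p = 0.00753 by edgeR).

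The LAX13-like gene, Zm00004b002401 (chromosome 1, 122734519 to 122738636), gave 1937, 1906 and 1907 reads across B46 and 2367, 3612 and 3452 across A12. The B46 libraries were almost alike, while A12 replicate 1 stood below the other A12 libraries but above B46. It rose from 124 ± 2.71 to 212 ± 46.1 CPM (log2 change 0.78 with an SE of 0.16, adjusted p = 0.0268 by edgeR). The LAX11-like gene, Zm00004b018422 (chromosome 3, 182375317 to 182383196), gave 1418, 1329 and 963 reads across B46 and 1973, 1743 and 1908 across A12. It rose from 79.9 ± 15.9 to 127 ± 7.01 CPM (log2 change 0.66 with an SE of 0.15, adjusted p = 0.0370 by edgeR). Both calls were lost without A12 replicate 3 (edgeR adjusted p = 0.117 and 0.128), without B46 replicate 1 (0.0978 and 0.0594) and without B46 replicate 2 (0.132 each). The LAX13-like call was also lost without B46 replicate 3 (0.0726), and the LAX11-like call without A12 replicate 2 (0.0533) and with limma without a filter (0.0502).

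The influx carrier with the highest mean FPKM of the 75 genes over all libraries lay the other way. Zm00004b000943, annotated as Arabidopsis LAX2 (chromosome 1, 34382483 to 34386769), gave 12639, 12758 and 12144 reads across B46 and 3291, 8486 and 7309 across A12. No A12 library reached the B46 range, but A12 replicate 1 was far below the other A12 libraries. The gene stood at 330 ± 9.05 FPKM in B46 and 176 ± 76.2 FPKM in A12, and the log2 fold change of -0.91 (SE 0.31) was not called by edgeR (adjusted p = 0.109). Without A12 replicate 1 the change was smaller but called (log2 change -0.60 with an SE of 0.11, adjusted p = 0.0106 by edgeR), and it was called without A12 replicate 2 as well (log2 change -1.21, adjusted p = 0.0481 by edgeR). DESeq2 called it as well (adjusted p = 0.0144). This gene was above the PIN1c-like gene in all 3 B46 libraries and below it in all 3 A12 libraries. It made 78.4% to 80.3% of all influx carrier FPKM in B46 and 41.3%, 59.2% and 55.7% in A12. The LAX12-, LAX13- and LAX11-like genes and the untested LAX14-like gene together went from 78.5 to 93.4 FPKM in B46 to 131, 166 and 153 FPKM in A12. The whole class stood at 399 to 432 FPKM in B46 and 223, 408 and 347 FPKM in A12, where the lines overlapped.

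**Figure D3:**
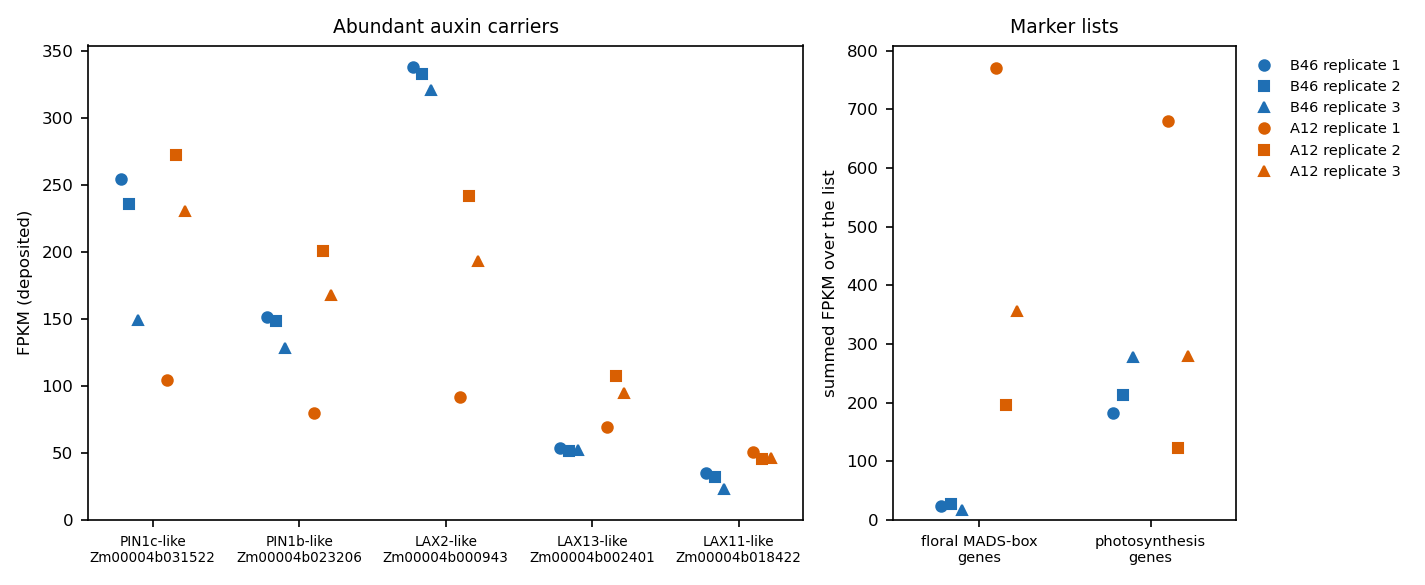
Left, deposited FPKM in each library of the 5 AUX/LAX and PIN genes with the highest means; right, summed FPKM of the floral MADS-box and photosynthesis marker lists in the same libraries. A12 replicate 1 is the lowest library for the PIN1c-like, PIN1b-like and LAX2-like genes (105, 79.5 and 92.1 FPKM) and the highest for both marker lists.

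None of the 9 tested PIN efflux carriers was called by edgeR, and 0 reached 0.05 before adjustment. The count was also 0 with DESeq2 and with limma. Most PIN transcript came from the PIN1c-like gene Zm00004b031522 (chromosome 9, 3717124 to 3720448) and the PIN1b-like gene Zm00004b023206 (chromosome 4), whose rice namesakes export auxin from cells of the shoot tip. The PIN1c-like gene gave 9704, 9236 and 5769 reads across B46 and 3815, 9769 and 8912 across A12. The PIN1b-like gene gave 6424, 6454 and 5535 reads across B46 and 3226, 8024 and 7200 across A12. For both, A12 replicate 1 was the lowest of all 6 libraries and A12 replicate 2 the highest, so the lines overlapped. Their log2 fold changes were -0.07 (SE 0.35) and 0.07 (SE 0.30), with edgeR adjusted p = 0.918 and 0.913. Without A12 replicate 1 they were 0.24 (SE 0.21) and 0.37 (SE 0.11), still not called (edgeR adjusted p = 0.456 and 0.0537). Together these 2 genes made 91.5% to 94.0% of the PIN FPKM in B46 and 83.0%, 94.5% and 93.0% in A12.

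Among the less abundant PIN genes, some varied widely within A12. The PIN1a-like gene of lowest p in the class, Zm00004b023046 (chromosome 4, 191508568 to 191512070), gave 38, 27 and 53 reads across B46 and 156, 37 and 68 across A12 and was not called (log2 change 1.205, adjusted p = 0.196 by edgeR). Its log2 change was 0.46 without A12 replicate 1 and 1.56 without A12 replicate 2, not called in either case (adjusted p = 0.437 and 0.0747). The PIN3a-like gene Zm00004b019520 on chromosome 3 gave 12, 31 and 44 reads across B46 and 393, 3 and 98 across A12. Its highest and lowest libraries of all 6 both belonged to A12. Over all 6 libraries the reads of this gene had the order of the photosynthesis sums, where B46 replicate 3 and A12 replicate 3 were nearly tied (279 and 280 FPKM). The reads had the order of the floral MADS-box sums within A12 but not within B46. A link to those tissues was not tested, and this gene was singled out after its values were seen. Of the 15 alternative analyses, only the one without A12 replicate 2 called it (log2 change 3.14, adjusted p = 0.0342 by edgeR), and with all libraries its log2 change was 2.57 (adjusted p = 0.219 by edgeR). The log2 change fell to 0.82 without A12 replicate 1 (adjusted p = 0.601). A second PIN3a-like gene, Zm00004b027110, gave 44, 41 and 36 reads across B46 and 34, 24 and 23 across A12 (edgeR adjusted p = 0.294). It was the only tested PIN gene without overlap of CPM between the lines, but only just. Its lowest B46 library was at 2.326 CPM and its highest A12 library at 2.318 CPM, and in deposited FPKM the lines overlapped. Of the 10 PIN genes not tested, 6 had 0 reads in every library and the others at most 24 in all. The PIN8-like gene Zm00004b019170, with 661 reads in all, overlaps a gene on the opposite strand with 6306, and reads of the pair cannot be told apart here.

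All 4 tested PINOID kinases had lower means in A12, and none was called. The most abundant, Zm00004b002864 (chromosome 1, 176702637 to 176704186), gave 418, 356 and 208 reads across B46 and 150, 298 and 310 across A12, with overlapping lines (log2 change -0.31 with an SE of 0.33, adjusted p = 0.590 by edgeR). The PINOID 2-like gene, an unnamed transcript model on chromosome 3 from 12169041 to 12171862, gave 466, 468 and 653 reads across B46 and 169, 361 and 345 across A12. Its lines did not overlap, with A12 replicate 1 again the lowest library (log2 change -0.80 with an SE of 0.29, adjusted p = 0.124 by edgeR, and adjusted p = 0.0478 with DESeq2). Zm00004b004521, on chromosome 1, gave 54, 57 and 69 reads across B46 and 47, 29 and 27 across A12 (log2 change -0.74 with an SE of 0.30, adjusted p = 0.165 by edgeR). It was called without A12 replicate 1 (log2 change -1.04, adjusted p = 0.0408 by edgeR). Without A12 replicate 1 the log2 changes of the most abundant gene and the PINOID 2-like gene were -0.05 and -0.52, not called (adjusted p = 0.917 and 0.0698). At an unadjusted p under 0.05, edgeR gave 2 of the 4.

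None of the PIN-LIKES carriers was called. Of 12 genes, 7 had 0 reads in every library, 4 were tested and 0 were called by edgeR, DESeq2 or limma, with 0 at an unadjusted p under 0.05. The PIN-LIKES 2 gene, Zm00004b022008 (chromosome 4, 142507082 to 142508437), held most of the class, its libraries giving 1222, 1203 and 1120 reads across B46 and 1125, 941 and 996 across A12. Its log2 fold change was -0.15 (with an SE of 0.10, adjusted p = 0.393 by edgeR). Changes of the remaining 3 tested genes ranged from -0.62 to 0.07 on the log2 scale.

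Among the GH3 enzymes that conjugate auxin, 1 of 7 tested genes rose, 1 fell and 5 were not called. Zm00004b018880, annotated as rice GH3.2 (chromosome 3, 200846150 to 200849504), gave 2, 1 and 5 reads across B46 and 46, 29 and 69 across A12. Its B46 libraries held 8 reads in all, and each A12 library lay well above them. The mean was 0.173 ± 0.135 CPM in B46 and 3.21 ± 1.23 CPM in A12 (log2 change 4.16 with an SE of 0.58, adjusted p = 0.00743 by edgeR). The size of that change rests on the 8 reads of B46 and on the scale, and limma on log2(FPKM + 1) gave 1.25. Zm00004b026542, annotated as rice GH3.4 (chromosome 8, 125364537 to 125367413), gave 1062, 1058 and 699 reads across B46 and 452, 528 and 589 across A12. It fell from 60.7 ± 13.5 to 35.3 ± 3.92 CPM (log2 change -0.78 with an SE of 0.18, adjusted p = 0.0373 by edgeR). That call was lost without A12 replicate 2, A12 replicate 3, B46 replicate 1 or B46 replicate 2 (edgeR adjusted p = 0.0585, 0.117, 0.131 and 0.157 in that order) and with limma on FPKM (adjusted p = 0.0524).

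Several of the GH3 genes that were not called varied widely between the B46 libraries. The most abundant GH3 gene, Zm00004b037208, annotated as rice GH3.8 (chromosome 7, 167140954 to 167143667), gave 521, 779 and 1701 reads across B46 and 805, 988 and 1044 across A12. The range of B46 enclosed that of A12 (log2 change -0.02 with an SE of 0.39, adjusted p = 0.983 by edgeR). Without B46 replicate 3 the log2 fold change was 0.60 (with an SE of 0.19, adjusted p = 0.121 by edgeR). Of the 7 tested GH3 genes, 5 were highest within B46 in replicate 3, among them the GH3.1-like gene Zm00004b018778 with 98, 213 and 550 reads. Summed over the class, GH3 transcripts stood at 54.7, 67.4 and 102 FPKM in B46 and 57.8, 74.1 and 69.7 FPKM in A12.

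Of the 9 calls, 4 held in each of the 15 alternative analyses, which included leaving out each library in turn. These were the YUCCA1-like, YUCCA8-like, LAX12-like and GH3.2-like genes, whose highest edgeR adjusted p with a library left out was 0.0480, 0.0490, 0.0491 and 0.0490. Among them, the YUCCA8-like and GH3.2-like genes passed the filter on low counts only through the line where they were high. With A12 replicate 1 left out, the log2 changes of the 4 genes were 1.97, -3.21, 1.92 and 4.18. Those of the other 5 were then 0.39 (TAR2-like), -0.51 (YUCCA2-like), 0.94 (LAX13-like), 0.62 (LAX11-like) and -0.69 (GH3.4-like), all still called. The other 5 calls were each lost in 5 or more alternatives.

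The median spread between libraries of the same line was larger over the auxin genes than over all genes tested. The ratio of the highest to the lowest CPM among B46 libraries had a median of 1.62 over the 35 tested auxin genes and 1.22 over all genes tested. Among A12 libraries it was 1.96 against 1.33. The ratio was larger in A12 for 22 of the 35. In B46 the GH3 class had a median ratio of 3.22, above that of every other class, and in A12 the YUCCA class had 2.80 and the PIN class 2.57. Few reads also widen this ratio, as in the YUCCA8-like gene with 2, 3 and 6 reads across A12. Genes were not matched for level. By mean FPKM over all libraries, the highest of the 75 genes were the LAX2-, PIN1c-, PIN1b-, LAX13- and PIN-LIKES 2-like genes, at 253, 208, 146, 71.6 and 53.5 FPKM. The order was not the same in both lines. The LAX2-like gene was above the PIN1c-like gene in every B46 library and below it in every A12 library. The PIN-LIKES 2-like gene was above the LAX13-like gene in every B46 library and below it in every A12 library. The PIN1c-like gene was above the PIN1b-like gene in every library of both lines, although their ranges overlapped in both lines.

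**Figure D4:**
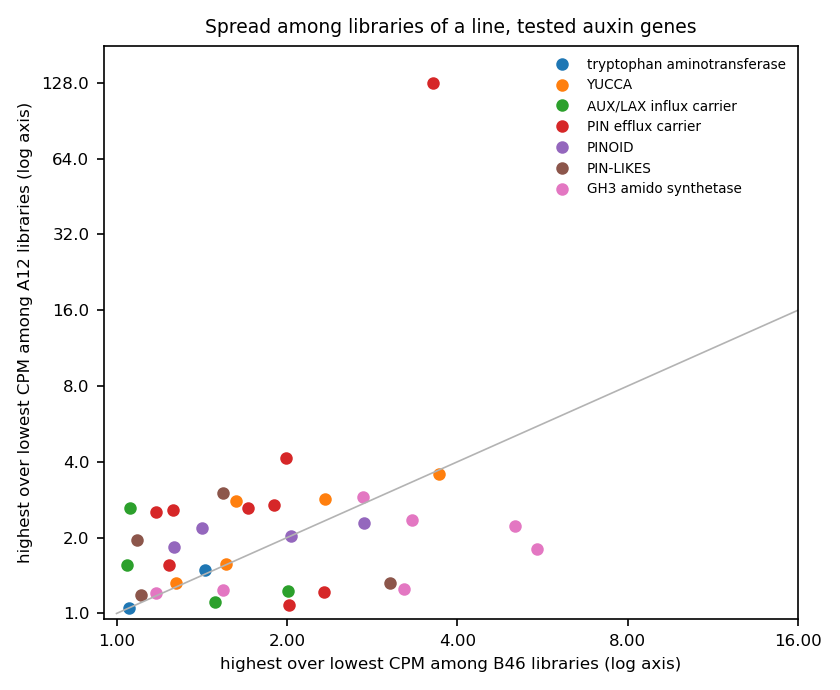
Ratio of the highest to the lowest library within B46 (x axis) and within A12 (y axis) for the 35 tested auxin genes, on log axes, coloured by class; the line marks equal ratios. The PIN3a-like gene Zm00004b019520 stands apart at 128 in A12, and GH3 genes extend farthest to the right.

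By position, none of the changes lay on the chromosome of the qKRN5.04b locus. Chromosome 5 held 2 of the 75 auxin genes, 2.67% against 11.5% of all genes in the table, and 0 of the 9 called. Only 1 of the 2 was tested. The PIN9-like gene Zm00004b013650 (chromosome 5, 155574648 to 155589973) had 0 reads in every library. The PIN1a-like gene Zm00004b015082 (chromosome 5, 210781564 to 210785132) gave 216, 245 and 442 reads across B46 and 414, 423 and 419 across A12. Its A12 libraries were nearly alike, and their reads lay within the range of B46. After scaling, A12 replicate 2 was just above the highest B46 library (29.4 against 28.6 CPM), and the lines still overlapped. The log2 fold change of 0.54 (SE 0.26) was not called by edgeR (adjusted p = 0.223). Without B46 replicate 3 it was 0.92 (with an SE of 0.12, adjusted p = 0.0144 by edgeR). Chromosome 8 held 5 auxin genes, or 6.67%, against 9.18% of all genes. All 5 were tested, and 3 were called. Chromosome 3 held 22 auxin genes, or 29.3%, against 11.1% of all genes. It held 12 of the 35 tested auxin genes and 3 of the calls. The YUCCA1-like gene Zm00004b019510 and the PIN3a-like gene Zm00004b019520 lie there 243.6 kb apart. The share of all genes called on each chromosome was not computed, so these counts show no concentration of calls.

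The other genes of the pathway were taken from a list by description, covering tryptophan supply, auxin oxidation, release from conjugates, receptors, ABCB carriers and proteins that place PIN in the membrane. Of its 88 genes, 55 were tested, 3 rose, 5 fell and 47 were not called, 14.5% against 9.86% of all genes tested. The median log2 fold change was -0.04, against 0.01 over all genes tested. The change of lowest adjusted p was in Zm00004b002729, annotated as NPY2, a BTB domain protein that works with PINOID-type kinases in Arabidopsis organ formation. It gave 667, 690 and 795 reads across B46 and 216, 220 and 225 across A12, with very even A12 libraries (log2 change -1.64 with an SE of 0.11, adjusted p = 0.000521 by edgeR). It was called in all 15 alternatives. Both NPY1-like calls went the other way, with log2 fold changes of 0.61 (with an SE of 0.12, adjusted p = 0.0262 by edgeR) for Zm00004b036000 and 1.02 (with an SE of 0.24, adjusted p = 0.0420 by edgeR) for Zm00004b009022. Both of these were lost without A12 replicate 3 (0.0982 and 0.0796), B46 replicate 1 (0.0822 and 0.143), B46 replicate 2 (0.132 and 0.168) or B46 replicate 3 (0.0713 and 0.0744), and the second with limma on FPKM (0.0595). Of the 8 calls, all remained without A12 replicate 1 (log2 changes 0.69 and 0.70 for these NPY1-like genes), where 16 genes of the list were called, 2 remained without B46 replicate 1, and 1 remained without A12 replicate 3 or B46 replicate 2. Neither NPY name went one way throughout. The most abundant NPY1-like gene, Zm00004b031736, had a lower mean in A12 and was not called (log2 change -0.32, adjusted p = 0.112 by edgeR). The tested NPY2-like genes that were not called had log2 changes from -0.34 to 0.45.

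ABCB transporters also move auxin across the plasma membrane. They were grouped with Zm00004b035564, annotated as auxin transport protein BIG, which is not an ABCB transporter. The group had 2 lower genes among 7 tested and 0 higher, and the BIG-like gene was not called (edgeR adjusted p = 0.0729). Zm00004b003426, annotated as Arabidopsis ABCB member 1, gave 3462, 3603 and 4062 reads across B46 and 1134, 1929 and 1735 across A12. It fell from 240 ± 19.8 to 108 ± 28.7 CPM (log2 change -1.15 with an SE of 0.19, adjusted p = 0.0144 by edgeR). Zm00004b006153, annotated as member 19, gave 1634, 1687 and 1386 reads across B46 and 926, 945 and 1073 across A12 (log2 change -0.61 with an SE of 0.10, adjusted p = 0.0145 by edgeR). The most abundant gene of the group, the member 19-like Zm00004b039658 at 236 ± 31.2 FPKM in B46 and 186 ± 20.3 FPKM in A12, was not called (edgeR adjusted p = 0.166). Both calls were lost without A12 replicate 3 (0.0744 for member 1 and 0.0693 for member 19), B46 replicate 1 (0.0527 and 0.0683) or B46 replicate 2 (0.0691 and 0.0880).

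Of the hydrolases that release auxin from amino acid conjugates, 2 of 8 fell. Zm00004b027353, annotated as ILR1-like 2, gave 47, 49 and 66 reads across B46 and 13, 4 and 7 across A12 (log2 change -2.67 with an SE of 0.43, adjusted p = 0.0126 by edgeR). It passed the filter on low counts through the B46 libraries, with only 1 A12 library over the limit. The ILR1-like 8 gene Zm00004b040043, the most abundant of them, fell by 0.48 on the log2 scale (with an SE of 0.12, adjusted p = 0.0445 by edgeR). In tryptophan supply 1 of 12 changed: Zm00004b032966, matched to a bacterial tryptophan synthase beta chain, gave 78, 80 and 72 reads across B46 and 262, 147 and 191 across A12 (log2 change 1.44 with an SE of 0.23, adjusted p = 0.0121 by edgeR). The 7 auxin receptor genes, 6 indole-3-acetaldehyde oxidases and 2 DAO-type auxin oxidases held 0 calls by edgeR, with 2, 3 and 0 at an unadjusted p under 0.05. The most abundant receptor, Zm00004b007645, was at 121 ± 4.02 FPKM in B46 and 135 ± 8.69 FPKM in A12 (edgeR adjusted p = 0.319). The most abundant members of the other groups were not called either: Zm00004b000678 (NPY2-like), Zm00004b001056 (anthranilate synthase), Zm00004b003820 (aldehyde oxidase) and Zm00004b007167 (DAO-like) had log2 fold changes between -0.21 and 0.09, and the glucosyltransferase Zm00004b004799 had 1 read in all. The hydrolase and tryptophan synthase calls were lost without A12 replicate 3 (edgeR adjusted p = 0.0786 for ILR1-like 2, 0.176 for ILR1-like 8 and 0.0565 for the synthase) and without B46 replicate 2 (0.0633, 0.181 and 0.0681). Without B46 replicate 1 the ILR1-like 8 call (0.146) and the synthase call (0.0527) were lost, and without B46 replicate 3 the ILR1-like 8 call (0.0810).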

How the data were processed

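Polyadenylated RNA of 3 pooled ear libraries per line was sequenced. Whole read counts by gene were deposited, and, in a separate table, the authors deposited FPKM values, which equal the counts divided by gene length and by a constant of the library. The submitters' processing notes list HISAT2 2.0.5 and, without a role, DESeq2 1.20.0. No source used here names the genome build, read counter or strand setting, so coordinates carry no build name and reads of near-identical copies or overlapping genes can be shared. The supplied RefSeq gene table shared 0 identifiers with the files.

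Members were found by words in the Swiss-Prot field. The members and lists were chosen with earlier results of these data known. Named were all called members, the most abundant of each class, the member of lowest p in classes without a call, and members on chromosome 5; Zm00004b023206, Zm00004b019520, Zm00004b004521 and others without a call or such rank were added after their values were seen.

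Counts were tested in R 4.3.3 with edgeR 4.0.16 (default expression filter, minimum count 10, TMM, quasi-likelihood F-test, two-sided, no covariates, Benjamini-Hochberg over 22741 genes). SE is the log2 fold change divided by the root of F. CPM are counts per 1e6 after TMM. Alternatives used DESeq2 1.42.0, limma 3.58.1 on log2(FPKM + 0.1), other scalings and filters, and each library left out. A further alternative had the replicate number as a block. The procedure was tested on simulated data. Each replicate pooled independently grown plants, per the series text, so p-values measure the spread between such pools of 1 line. Groups and replicate numbers came from the titles.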

Additional observations from a re-analysis of the deposited data

How the results depend on the processing

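The number of called auxin genes was 9 and went to 4 with the replicate number as a block (3 higher, 1 lower; 967 of all genes; 4 of the other pathway genes). Lower auxin genes numbered 5 with DESeq2 (6.88% of all genes tested, with 3488 genes called in all) and 1 with limma on log2(FPKM + 0.1), with or without a filter, or on log2(FPKM + 1). With 1 library left out, called auxin genes ranged from 4 to 11, higher ones from 3 to 6 and lower ones from 1 to 5. Called genes ranged from 1 to 16 in the other pathway list and from 401 to 4446 over all genes. Leaving out a library also leaves fewer samples. Auxin genes without overlap ranged from 13 to 21. Fewer libraries separate more readily, and the share of all genes without overlap was not computed for these settings. The labels share replicate numbers but give no pairing of the libraries. Same-numbered libraries had correlations of -0.120, -0.014 and 0.005 of their deviations from the line means, which cannot exclude a pairing. The log2 change of 6 genes that were not called turned sign: Zm00004b037208 (GH3.8-like) was at 0.15 with limma at either filter, 0.14 with limma on log2(FPKM + 1) and 0.15 with the block, and ranged from -0.32 to 0.60 with a library left out; Zm00004b023206 (PIN1b-like) was at -0.036, -0.035 and -0.028 and ranged from -0.21 to 0.37. Zm00004b003820 was at -0.016 with upper-quartile scaling and ranged from -0.096 to 0.064. The PIN1c-like gene Zm00004b031522 ranged from -0.35 to 0.24, Zm00004b007167 from -0.23 to 0.72 and Zm00004b000678 from -0.30 to 0.25. The cause was not tested. The 4 calls kept under the block were those of the YUCCA1-, YUCCA8-, LAX12- and GH3.2-like genes. The GH3.2-like change of 4.16 was 1.25 and the YUCCA8-like change of -3.50 was -1.38 with limma on log2(FPKM + 1), where a pseudocount shrinks low values. Genes with few reads, such as the GH3.2-like gene in B46, are limited by depth.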
